A study of Mus musculus with 16 samples.

Results

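The 33 genes described here build cholesterol and fatty acids, or regulate that synthesis. They were taken by symbol from a gene expression table of mouse embryonic stem cells, and all 33 were found among its 21455 entries with a gene symbol. By role, 7 of them lead from acetyl-CoA to farnesyl diphosphate and 11 from there through squalene to sterols. A further 6 regulate synthesis or carry sterol, 4 make acetyl-CoA, malonyl-CoA and palmitate, and 5 elongate or desaturate fatty acids. RNA of E14tg2a cells, a mouse embryonic stem cell line, was sequenced in 16 libraries, 2 in each of 8 groups. The labels name WT cells, cells called DKO and cells called P14. The first stage is 2i culture in N2B27, a serum-free medium, which holds cells in the naive pluripotent state with LIF at 1000 U/mL, the MEK inhibitor PD0325901 at 1 µM and the GSK3β inhibitor CHIR99021 at 3 µM. Later cells were taken on day 2 and day 4 of induction towards epiblast-like cells in N2B27 on fibronectin with bFGF at 12 ng/mL. P14 cells were measured only at day 2 and day 4. The series speaks of wild-type cells, of a knockout in cis of Prdm14, a PR-domain regulator of naive pluripotency and of germ cells, and of cells overexpressing that gene. DKO and P14 were paired with the last 2 by elimination, because the labels define neither name. Nothing in the labels tells whether replicate libraries stem from different cultures, or whether a line is more than 1 clone. P-values therefore measure the spread between these libraries, and a difference between kinds of cells cannot be told apart from one between lines.

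Cholesterol synthesis joins acetyl-CoA units to HMG-CoA and mevalonate, turns mevalonate into farnesyl diphosphate, and closes squalene into the sterol ring that later enzymes trim to cholesterol. Fatty acid synthesis takes acetyl-CoA from citrate or acetate, makes malonyl-CoA and builds palmitate, which is then lengthened and given double bonds. The transcription factors SREBP1 and SREBP2, products of Srebf1 and Srebf2, switch on most of these enzymes. SCAP escorts them to the Golgi, where they are cut and released when sterol is scarce, and the INSIG proteins hold SCAP back when it is plentiful. Since the factors are activated by cutting, the RNA level of Srebf1 or Srebf2 is not a measure of their activity.

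The stretch of DNA just before the start of 26 members was read from RefSeq (GRCm38.p6), 250 bases for each annotated start, to show the letters that SREBP and its partner NF-Y are known to bind. The 3 windows below belong to HMG-CoA synthase, to a later enzyme of the mevalonate route and to fatty acid synthase, which carry results of the sterol and of the fatty acid branch. They lie at chr13:119690101-119690350 (+ strand, Hmgcs1), chr8:122443423-122443672 (- strand, Mvd) and chr11:120824548-120824797 (- strand, Fasn). Each is written 5′ to 3′ on the strand of its gene. Capitals mark TCACNCCAC, a short form of the sterol regulatory element, and CCAAT, the NF-Y box, on either strand, so that a box on the other strand reads ATTGG.
Hmgcs1: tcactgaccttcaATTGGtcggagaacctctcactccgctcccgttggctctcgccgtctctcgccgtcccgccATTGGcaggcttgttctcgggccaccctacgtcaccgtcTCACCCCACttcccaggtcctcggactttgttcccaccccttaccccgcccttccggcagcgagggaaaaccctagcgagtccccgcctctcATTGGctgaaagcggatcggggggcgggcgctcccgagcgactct
Mvd: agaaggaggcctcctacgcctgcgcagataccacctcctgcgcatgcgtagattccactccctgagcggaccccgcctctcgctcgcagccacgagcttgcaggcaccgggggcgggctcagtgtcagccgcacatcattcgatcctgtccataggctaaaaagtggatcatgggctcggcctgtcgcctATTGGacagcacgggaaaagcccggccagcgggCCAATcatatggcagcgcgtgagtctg
Fasn: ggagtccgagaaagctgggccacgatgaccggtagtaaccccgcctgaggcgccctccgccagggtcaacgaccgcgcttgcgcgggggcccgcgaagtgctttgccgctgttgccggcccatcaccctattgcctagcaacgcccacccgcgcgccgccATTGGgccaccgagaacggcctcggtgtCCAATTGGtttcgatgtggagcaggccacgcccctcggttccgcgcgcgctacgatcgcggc
The Hmgcs1 window held TCACCCCAC with its first base 137 bases before the RefSeq start, and CCAAT or ATTGG at 3 sites. Bases just after the start were found in GENCODE transcripts of the same gene for 26 of the 34 windows of members. For Hmgcs1 they were not, so its distance holds for the RefSeq start only. TCACNCCAC was found in 1 of the 26 members with a window and in 1.225% of 27025 genes. CCAAT was found in 20 of 26 members (76.92%) and in 37.49% of all genes, the GC box GGGCGG in 22 of 26 (84.62%) and in 35.36%, and the E-box CACGTG in 5 of 26 (19.23%) and in 6.86%. Both strands were searched, and sites of 2 motifs may overlap. The shares of all genes cover every gene with a window, whether or not it was expressed here. No share was taken among genes expressed like the members, so the contrast may not be particular to them. These are matches of letters and not measured binding sites.

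Each library held between 20696344 and 32710603 recovered reads, and no member had fewer than 128 reads in any library. Values are normalized read counts, and pairs of values are the 2 libraries of a group. The replicate libraries of a group correlated at 0.965 to 0.977 over the genes tested. The median coefficient of variation of the members lay between 4.04% (WT day 4) and 6.74% (WT 2i), and the widest, 27.1%, was that of Fdps at day 2 in P14 cells. Prdm14 was measured at 1083 and 1096 in WT 2i, 625 and 712 at day 2 and 166 and 219 at day 4. It was not lower in the DKO-labelled libraries, which had 1803 in 2i, 1273 and 1347 at day 2 and 571 and 595 at day 4. P14 libraries had 10669 and 11036 at day 2 and 7054 and 8014 at day 4, above every WT library. The DKO name is therefore used below only as the label of those libraries.

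Markers of cell state moved along with the stages and the kinds of cells. The summed level of 7 pluripotency markers was 35356 to 35656 in WT 2i and 4298 to 4677 at WT day 4, where 5 of the 7 were called lower, beside 18.7% of all genes. At day 2 it was 10794 to 11491 in WT, 25214 to 26039 in DKO-labelled and 16244 to 18496 in P14 libraries, and at day 4 13152 to 13529.5 in DKO-labelled and 9437 to 9773 in P14 libraries. The 5 markers of the postimplantation epiblast, the state that the induction leads towards, summed to 862 to 911 in WT 2i, 4150.3 to 4439.9 at WT day 2 and 3250.1 to 3332 at WT day 4. In DKO-labelled libraries they summed to 452 to 466 in 2i, 1193 to 1392 at day 2 and 3200.3 to 3254 at day 4, and in P14 libraries to 1648 to 1751 at day 2 and 1536 to 1789.5 at day 4. One pluripotency marker, Pou5f1, read at most 27.7 in any library although Nanog, Esrrb and Zfp42 averaged 8442, 13941 and 8374 in WT 2i. The annotated antisense gene Gm19553 overlaps exons of Pou5f1, and its part in that value was not tested. Nanog, Esrrb and Zfp42 made up most of the pluripotency sum in WT 2i, which therefore does not measure pluripotency as a whole. The 12 measured primitive and visceral endoderm markers summed to 693 to 806 in WT 2i, 7054 to 7336 at WT day 2 and 8996 to 9276 at WT day 4. They summed to 546 to 596, 6807 to 7036 and 13144 to 13549.6 in DKO-labelled libraries and to 4614 to 6109.6 and 3164 to 3805 in P14 libraries at day 2 and day 4. Of these, Sox7 was at 0 in both WT 2i libraries, Ttr in both libraries of WT day 2, DKO 2i, DKO day 2, P14 day 2 and P14 day 4, and Foxa2 in both of P14 day 2. The endoderm sum does not tell how many of its markers rose, and a few genes may carry it. The 5 neuroectoderm markers, all called higher at WT day 4 than in 2i (beside 21.9% of all genes), summed to 939.9 to 1099.6 in WT 2i and 4293 to 4585 at WT day 4, and to 2321 to 2416 in DKO-labelled and 1466 to 1805 in P14 libraries at day 4. The 4 measured fibroblast markers never summed to more than 140.3, and no adipocyte or liver marker was analysed here. In bulk RNA, fewer cells of a kind and less RNA per cell cannot be told apart.

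In WT cells many members were called higher at each step of induction. At day 2, 15 of the 33 members were higher than in 2i and 4 were lower, where 12.7% and 10.8% of all 21450 genes tested were (limma, adjusted p under 0.05). From day 2 to day 4, 19 rose and 1 fell, beside 17.2% and 15.8% of all genes. Over the whole course from 2i to day 4, 25 rose and 1 fell, beside 21.9% and 18.7%. The members' median log2 change was 0.32, 0.43 and 0.61 in these comparisons, while that of all genes lay between -0.031 and 0.03 in all 16 comparisons. All genes tested include any that reached 1 in 2 libraries, while every member had at least 128 reads in each library. Shares and medians of all genes therefore also cover genes of lower level than the members. The members' share of the counts in named entries grew from 0.554% and 0.574% in WT 2i to 0.664% and 0.706% at day 2 and 0.906% and 0.941% at day 4.

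**Figure D1:**
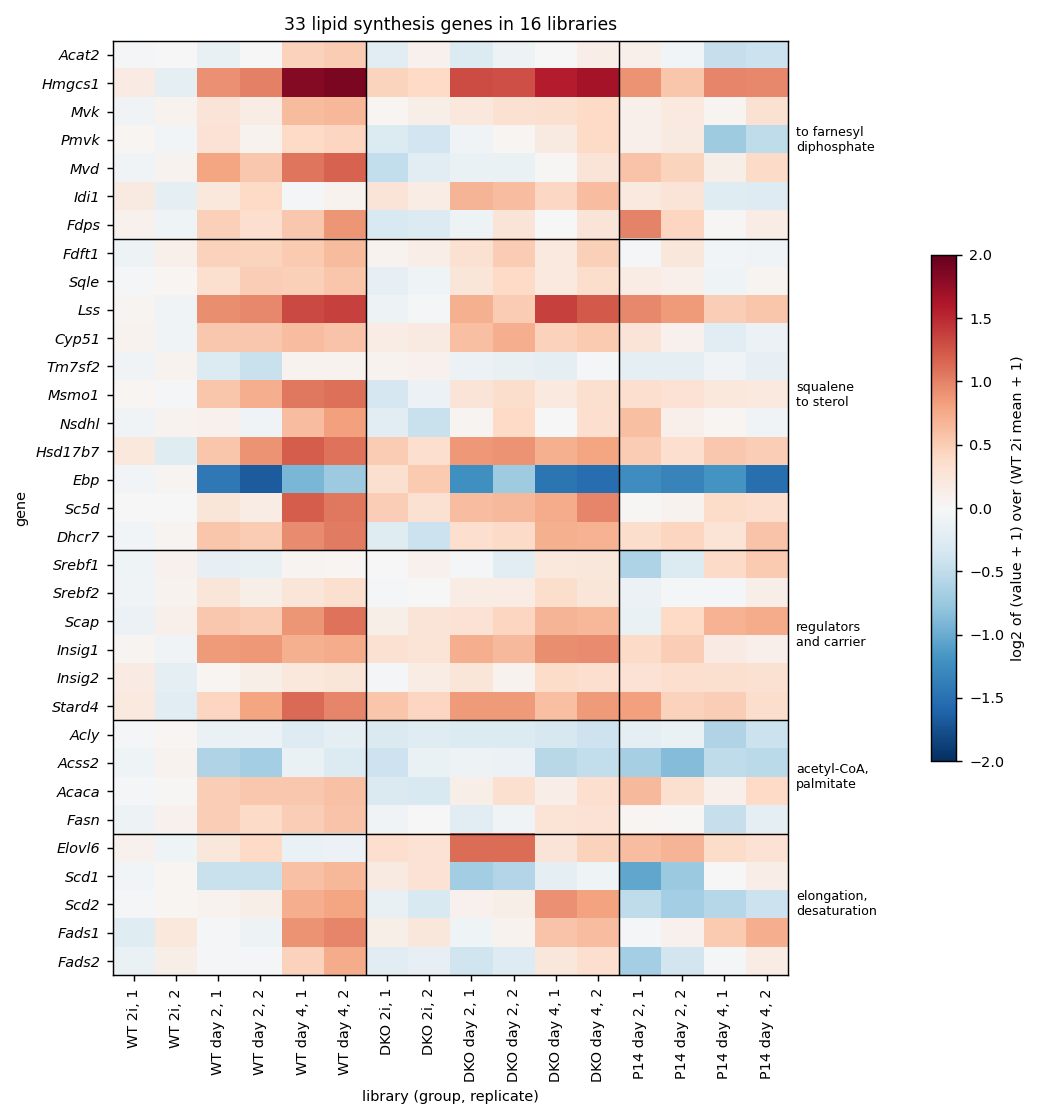
Log2 level of each of the 33 members (rows, grouped by role) in each of the 16 libraries (columns) relative to the mean of the WT 2i libraries, with a pseudocount of 1; red is higher and blue is lower. Most rows deepen in red from WT 2i to WT day 4, Ebp is blue in every library after 2i, and the P14 day 4 columns are paler or bluer than the WT day 4 columns in most rows.

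Of the 7 genes leading to farnesyl diphosphate, 6 were higher at WT day 4 than in 2i, beside 21.9% of all genes. Hmgcs1 makes HMG-CoA, the substrate from which mevalonate is formed. It read 3054 and 2386 in WT 2i, 5118 and 5442 at day 2 and 9696 and 10072 at day 4. The stages did not overlap, and its 3.66-fold rise over the course was the greatest log2 change of the 33 members (log2 1.87 ± 0.12, adjusted p = 9.2e-09). Mvd, which makes isopentenyl diphosphate from mevalonate diphosphate, read 1569 and 1733 in 2i, 2848 and 2406 at day 2 and 3461 and 3752 at day 4, a rise of 2.18-fold (log2 1.13 ± 0.13, adjusted p = 3.5e-06). Mvk, the mevalonate kinase, and Pmvk, the next kinase, rose by log2 0.65 ± 0.11 and 0.41 ± 0.11 from 2i to day 4. Fdps, which joins the isoprene units into farnesyl diphosphate, rose by 0.71 ± 0.17, and its day 4 libraries stood apart from each other at 2880.3 and 3661. Acat2, which joins 2 acetyl-CoA molecules at the entry to the pathway, read 4132 and 4222 in 2i and 3786 and 4169 at day 2, a step that did not pass the test, and was higher at day 4 with 5747 and 5938 (log2 0.56 ± 0.11, adjusted p = 0.0013 from day 2). Idi1, which isomerises isopentenyl diphosphate, did not pass the test at any WT step, and its log2 change over the course was 0.036 ± 0.12.

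Of the 11 genes from squalene to sterol, 9 rose over the WT course and Ebp fell, beside 21.9% and 18.7% of all genes. Lss closes oxidised squalene into lanosterol, the first sterol. It read 1796 and 1648 in 2i, 3276 and 3362 at day 2 and 4294 and 4450.0 at day 4, a 2.54-fold rise (log2 1.34 ± 0.097, adjusted p = 2.5e-08). It was 1.93-fold higher at day 2 already. Cyp51 and Msmo1 take methyl groups off lanosterol and its products. Cyp51 read 3271 and 2974 in 2i, 4560.1 and 4534 at day 2 and 4811 and 4631 at day 4, with a log2 change of 0.54 ± 0.095 to day 2 and 0.054 ± 0.095 after it, of which only the first passed the test. Msmo1 read 2115 and 2006 in 2i, 3015 and 3426 at day 2 and 4287 and 4415 at day 4, rising by 0.64 ± 0.10 and then by 0.44 ± 0.10. Sc5d, which puts in the ring double bond near the end of the route, moved late, from 513 and 514 in 2i and 609 and 571 at day 2 to 1189 and 1072 at day 4 (log2 0.94 ± 0.11, adjusted p = 1.1e-05 from day 2). Dhcr7, which makes cholesterol in the last step of its branch, read 1074 and 1169 in 2i, 1648 and 1589 at day 2 and 2153 and 2299 at day 4, without overlap between stages (log2 0.99 ± 0.11, adjusted p = 2.6e-06 over the course).

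Squalene synthase Fdft1 and squalene epoxidase Sqle, the first steps of this stretch, were higher at day 4 than in 2i by log2 0.58 ± 0.12 and 0.51 ± 0.10, and neither passed the test between day 2 and day 4. Hsd17b7, a ketosteroid reductase of the pathway, rose by 1.17 ± 0.15 over the course. Nsdhl, the dehydrogenase that acts in the same demethylation, did not pass the test at day 2 (log2 0.0087 ± 0.17) and rose by 0.71 ± 0.17 afterwards. Tm7sf2, a sterol reductase whose exons overlap those of Vps51 on the same strand, fell by day 2 (log2 -0.36 ± 0.10) and rose again by day 4 (0.43 ± 0.10), ending 0.072 ± 0.10 from its level in 2i. Ebp, the sterol isomerase, ran against the others: it read 553 and 595 in 2i, 213 and 180.0 at day 2 and 304 and 345 at day 4. Both later stages were below 2i, at 0.343 and 0.565 times its level (log2 -1.55 ± 0.17, adjusted p = 7.7e-06 at day 2; log2 -0.82 ± 0.17, adjusted p = 0.0013 at day 4).

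Among the 6 regulators and carriers, 4 were higher at WT day 4 than in 2i, beside 21.9% of all genes. Insig1, the sterol-sensitive retention protein and itself a known SREBP target, read 2623 and 2406 in 2i, 4525 and 4569 at day 2 and 4101 and 4188 at day 4. Insig1 rose by day 2 (log2 0.86 ± 0.087, adjusted p = 2.6e-06), and the later change of -0.13 ± 0.087 did not pass the test. Scap, the escort protein, read 759.9 and 883 in 2i, 1195 and 1171 at day 2 and 1518 and 1746 at day 4, and Stard4, a soluble carrier of cholesterol, 934 and 691 in 2i, 1095 and 1405 at day 2 and 1782 and 1594 at day 4. Both ended higher than in 2i, by log2 0.99 ± 0.14 and 1.07 ± 0.16. Of the transcription factor genes only Srebf2 was called: Srebf2 read 10065 and 11055 in 2i and 12427 and 13197 at day 4 (log2 0.28 ± 0.10, adjusted p = 0.039), and Srebf1 read 3413 and 3838 in 2i and 3772 and 3742 at day 4 (log2 0.054 ± 0.12, adjusted p = 0.75). Insig2, the other retention protein, had the lowest counts of all members, between 120.3 and 178 in every library, and passed the test in none of the 16 comparisons (limma; 0 also at an unadjusted p under 0.05, and 0 with limma-voom).

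The genes for acetyl-CoA and palmitate divided. Acaca, which makes malonyl-CoA, read 3505 and 3590.1 in 2i, 4967 and 5133 at day 2 and 5154 and 5323 at day 4 (log2 0.56 ± 0.12, adjusted p = 0.0019 over the course). Fasn, fatty acid synthase, read 19630.5 and 22450.2 in 2i, 29729.5 and 27558 at day 2 and 29631 and 31375 at day 4 (log2 0.54 ± 0.13, adjusted p = 0.0028). Acly, which takes acetyl-CoA from citrate, read 18032 and 18865 in 2i and 15449 and 16114 at day 4 and passed the test at no WT step (log2 -0.23 ± 0.10, adjusted p = 0.095). Acss2, which takes it from acetate, fell to 0.641 times its level by day 2, from 694 and 773 to 483 and 456 (log2 -0.64 ± 0.12, adjusted p = 0.0011), and rose to 668 and 605 by day 4. The exons of Acss2 overlap those of Ggt7, Gss and Acss2os on the other strand.

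All 4 desaturase genes rose between day 2 and day 4, beside 17.2% of all genes. Scd1, which introduces the first double bond into stearate, read 8836 and 9434 in WT 2i, fell to 6681 and 6734 at day 2 and rose to 13652 and 14511 at day 4. The last step was 2.1-fold, the greatest day 2 to day 4 change of the members (log2 1.07 ± 0.11, adjusted p = 3e-06). Scd2, its paralogue on chromosome 19, read 18409.8 and 19571 in 2i, 20004 and 20521 at day 2 and 31355 and 32946 at day 4, not passing the test at day 2 and higher at day 4 (log2 0.67 ± 0.11, adjusted p = 0.00035). Reads shared by the similar sequences of Scd1 and Scd2 may have been divided between them. Fads1 and Fads2, neighbours on the same chromosome that desaturate polyunsaturated fatty acids, rose from day 2 to day 4 by log2 1.01 ± 0.13 and 0.63 ± 0.13, to 5078 and 5384 and to 5265 and 6405. Elovl6, which lengthens palmitate to stearate, went the other way, from 4046 and 4544 at day 2 to 3144 and 3177 at day 4 (log2 -0.44 ± 0.099, adjusted p = 0.0031), the only member called lower at that step. Per kilobase of exon, Scd2 was the highest member at WT day 4 with 5884 normalized counts per kilobase and Insig2 the lowest with 46.5. Acly (2989.5), Scd1 (2879) and Fasn (2786) followed Scd2. Exon length was that of all annotated exons of a gene merged, whichever transcripts were in use. The order of close values may depend on that choice.

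The calls differed in how firmly they held. At day 2, Fdft1, Sqle, Tm7sf2, Scap, Stard4, Acaca, Fasn, Elovl6 and Scd1 missed the threshold in at least 1 of the 4 fits without 1 WT library (log2 -0.44 to 0.54 there), and without WT day 2 replicate 2 only 9 members were higher and 3 lower. Between day 2 and day 4, Mvk, Mvd, Tm7sf2, Msmo1, Nsdhl, Hsd17b7, Ebp, Scap, Stard4 and Acss2 did so (0.25 to 0.62, each of the 4 libraries ending some calls), and centring each library on its median, which moved the median of all genes from 0.02 to -0.16, left 9 higher and 3 lower. Over the whole course 23 of the 26 calls held without each library, the exceptions being Pmvk, Fdps and Srebf2 (0.21 to 0.54), and centring, which moved the median of all genes from 0.01 to -0.20, gave 21 higher and 4 lower.

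**Figure D2:**
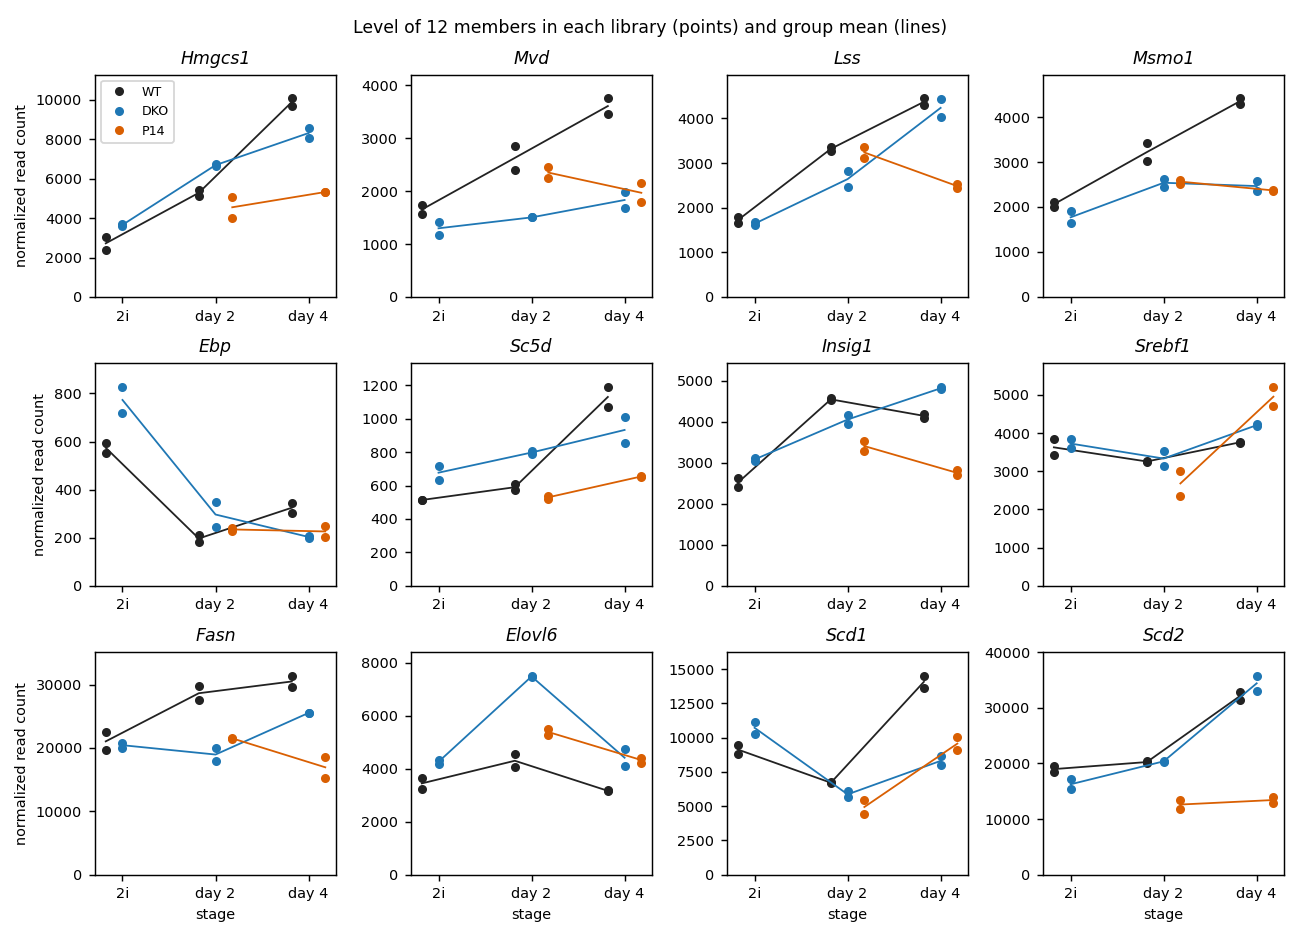
Normalized read count (vertical axis, from 0) of 12 members at each stage; points are single libraries, lines join group means, and colours mark WT, DKO and P14. Hmgcs1, Mvd and Msmo1 climb to their highest values in the WT day 4 libraries, Scd2 in P14 cells reaches at most 14048 while every WT and DKO-labelled library lies at 31355 or more at day 4, and Elovl6 is highest in the DKO-labelled libraries at day 2, at 7496 and 7457.

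In the DKO-labelled cells 12 members were higher and 2 lower at day 2 than in DKO 2i, beside 12.3% and 9.15% of all genes and a members' median of 0.30. Hmgcs1 read 3711 and 3601 in DKO 2i and 6734 and 6639 at day 2 (log2 0.87 ± 0.12, adjusted p = 9.1e-05), and Lss read 1603 and 1679 in DKO 2i and 2825 and 2457 at day 2 (log2 0.68 ± 0.097, adjusted p = 9.1e-05). Cyp51, Msmo1, Dhcr7 and Insig1 rose by log2 0.50, 0.52, 0.70 and 0.40. Elovl6 rose 1.76-fold, from 4323 and 4190.0 to 7496 and 7457 (log2 0.81 ± 0.099, adjusted p = 2.1e-05). Ebp fell to 0.379 and Scd1 to 0.547 times their level in DKO 2i. Idi1, Sqle, Nsdhl, Hsd17b7 and Acaca were also called higher. Each of these calls was lost without at least 1 of the 4 DKO libraries (log2 0.37 to 0.55 there), and that of Hsd17b7 without each of them. Leaving out DKO day 2 replicate 2 ended all 5 of these calls.

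From day 2 to day 4 the DKO-labelled cells had 7 members higher and 3 lower, beside 10.5% and 9.59% of all genes, and a median of 0.15. Lss read 4442 and 4032 at day 4, 1.61-fold above day 2 (log2 0.68 ± 0.097, adjusted p = 0.00015). Scd2 rose from 20248 and 20535 to 35767 and 33106 (log2 0.75 ± 0.11, adjusted p = 0.00026), and Fads1 and Fads2 by log2 0.60 and 0.61. Elovl6 came down to 4094 and 4724 (log2 -0.77 ± 0.099, adjusted p = 6.6e-05). Dhcr7, Fasn and Scd1 were also called higher (log2 0.34, 0.43 and 0.50) and Ebp and Acss2 lower (-0.52 and -0.42). Each of these 5 calls was lost without at least 1 library (log2 -0.55 to 0.45 there). The calls of Dhcr7 and Acss2 were lost without each DKO library of these stages. Without DKO day 2 replicate 1 the counts were 4 and 2, and without DKO day 4 replicate 1 or replicate 2 they were 5 and 1. Hmgcs1, at 8048 and 8576, did not pass the test at this step (log2 0.31 ± 0.12, adjusted p = 0.091).

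From day 2 to day 4 the main fit called more members lower than higher in P14 cells, but several other fits given below did not. The test called 5 higher and 9 lower, beside 11.5% and 11% of all genes, with a median of -0.11. Pmvk went from 1054 and 1108 to 599.6 and 687, or 0.595 times its level (log2 -0.75 ± 0.11, adjusted p = 0.00024). Acat2 went from 4488 and 4001 to 3025 and 3110.1 and Lss from 3369 and 3106 to 2434 and 2532, with log2 changes of -0.47 ± 0.11 and -0.38 ± 0.097. Srebf1 rose 1.86-fold, from 2354 and 3005 to 4703 and 5201 (log2 0.89 ± 0.12, adjusted p = 5.6e-05). Scd1, Fads1 and Fads2 rose in P14 cells as well, by 0.96, 0.60 and 0.59, and Scap by 0.58, while Scd2 did not pass the test (log2 0.091 ± 0.11, adjusted p = 0.62). The remaining calls were lower Idi1, Fdps, Cyp51, Insig1, Acly and Elovl6, at log2 -0.62 to -0.31. Only the calls of Pmvk, Srebf1, Scd1 and Fads1 held without each of the 4 P14 libraries. The other 10 missed the threshold in some of those fits (log2 -0.68 to 0.56 there), and Elovl6 in all of them. The counts were 4 higher and 4 lower without P14 day 2 replicate 1, 5 and 3 without P14 day 4 replicate 1, 3 and 6 without P14 day 4 replicate 2, and 5 and 3 when libraries were scaled to their totals.

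**Figure D3:**
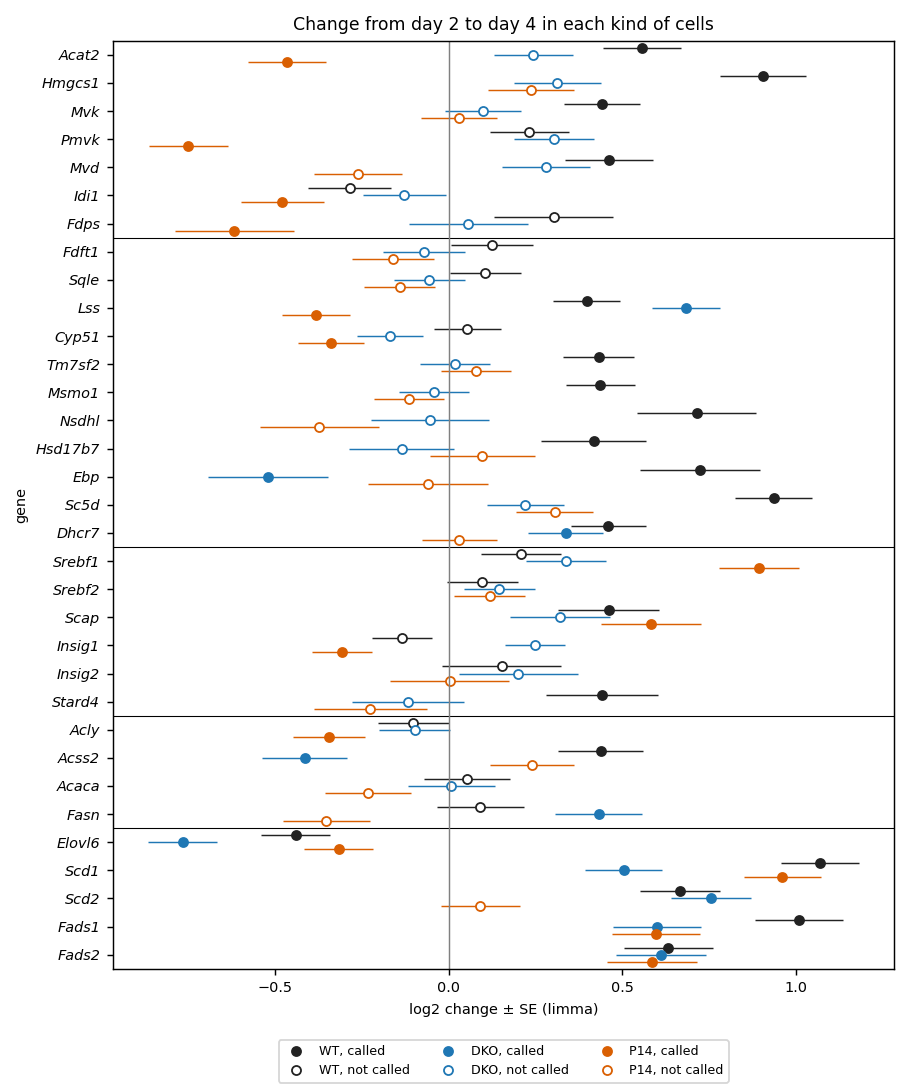
Log2 change from day 2 to day 4 (horizontal axis, limma estimate ± SE) of each member in WT, DKO-labelled and P14 cells; filled points passed the threshold. The WT points of the mevalonate and sterol genes lie mostly to the right of 0 and the P14 points mostly to the left, while Fads1 and Fads2 lie to the right in all 3 kinds of cells.

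The kinds of cells were then compared at the same stage. The comparisons with WT share the WT libraries, so their values are set side by side and no overlap is read from them. In 2i, DKO-labelled and WT cells differed in few members: Hmgcs1, Sc5d and Insig1 were called higher and none lower, beside 3.19% and 5.47% of all genes, with a median of 0.041. At an unadjusted p under 0.05 there were 7 members higher and 7 lower, and limma-voom also called 3 and 0. Here and below, shares of all genes are those of the main fit at the adjusted threshold. Counts at an unadjusted p or from other fits have no such share beside them and cannot be read against it. Hmgcs1 read 3054 and 2386 in WT and 3711 and 3601 in DKO-labelled libraries (log2 0.44 ± 0.12, adjusted p = 0.04), and the log2 differences of Sc5d and Insig1 were 0.40 ± 0.11 and 0.29 ± 0.087. Sc5d and Insig1 missed the threshold without each of the 4 libraries and Hmgcs1 without WT 2i replicate 2 or either DKO library (log2 0.23 to 0.49 over these), so that 0 members were called in those 3 fits.

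At day 2, 4 members were higher and 4 lower in DKO-labelled than in WT libraries, beside 5.98% and 6.64% of all genes, with a median of -0.032. Elovl6 read 4046 and 4544 in WT and 7496 and 7457 in DKO-labelled libraries, 1.74-fold higher without overlap (log2 0.80 ± 0.099, adjusted p = 6.3e-05). Mvd read 2848 and 2406 in WT and 1503 and 1504 in DKO-labelled libraries, or 0.574 times the WT level (log2 -0.80 ± 0.13, adjusted p = 0.0006). Ebp, Sc5d and Acss2 were also called higher (log2 0.57, 0.43 and 0.53), and Lss, Msmo1 and Fasn lower (-0.33, -0.34 and -0.60). Those 6 calls were each lost without at least 1 library (log2 -0.54 to 0.69 there), and that of Sc5d without each WT or DKO library of day 2. The counts fell to 2 and 2 without WT day 2 replicate 1 or DKO day 2 replicate 1, and to 1 and 2 without WT day 2 replicate 2 or DKO day 2 replicate 2. Scaling to library totals, which moved the median of all genes to 0.11, gave 5 higher and 2 lower. Beside these values, 4 of 7 pluripotency markers were higher and 3 of 5 epiblast markers lower in DKO-labelled libraries at day 2, with sums of 25214 to 26039 against 10794 to 11491 and of 1193 to 1392 against 4150.3 to 4439.9, and their part in the differences was not tested.

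At day 4, 2 members were higher and 7 lower in DKO-labelled than in WT libraries, beside 6.95% and 6.8% of all genes, with a median of -0.28 against -0.031 for all genes. Mvd read 3461 and 3752 in WT and 1684 and 1980.1 in DKO-labelled libraries, 0.507 times the WT level (log2 -0.98 ± 0.13, adjusted p = 7.3e-05). Msmo1 read 4287 and 4415 in WT and 2362 and 2567 in DKO-labelled libraries (log2 -0.82 ± 0.10, adjusted p = 3.9e-05), and Scd1 13652 and 14511 in WT and 7981 and 8633 in DKO-labelled libraries (log2 -0.76 ± 0.11, adjusted p = 0.00024). In all 3 genes both DKO-labelled libraries lay below both WT libraries, which is nearly given for genes called lower from these same libraries. Acat2, Fdps, Nsdhl and Ebp were called lower (log2 -0.43, -0.57, -0.55 and -0.67) and Idi1 and Elovl6 higher (0.49 and 0.48); each of these 6 was lost without at least 1 of the 4 libraries (log2 -0.70 to 0.45 there). Without WT day 4 replicate 2, or without DKO day 4 replicate 1, 2 members were higher and 3 lower. Median centring gave 2 higher and 4 lower, and scaling to totals 1 and 8. Beside these values, 4 of the 12 endoderm and 6 of 7 pluripotency markers were higher in DKO-labelled libraries at day 4, 3 of 5 neuroectoderm markers were lower, and of 5 epiblast markers 2 were higher and 1 lower. Their part in the differences was not tested.

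Against WT at day 2, 5 members were lower in P14 cells and 0 higher, beside 4.69% and 3.69% of all genes. The members' median was -0.14. At an unadjusted p under 0.05, 12 were lower and 1 higher, and limma-voom called 6 and 1, without shares of all genes. Scd2 read 20004 and 20521 in WT and 13384 and 11834 in P14 libraries, 0.621 times the WT level (log2 -0.69 ± 0.11, adjusted p = 0.0012). Cyp51, Insig1, Scd1 and Fads2 were the other calls, at log2 -0.37, -0.42, -0.45 and -0.49, and each was lost without at least 1 library (log2 -0.50 to -0.29 there). The counts of lower and higher members were 2 and 0 without WT day 2 replicate 1 or P14 day 2 replicate 1, 1 and 0 without WT day 2 replicate 2, and 7 and 2 without P14 day 2 replicate 2. At this stage 7 of 12 endoderm and 2 of 5 epiblast markers were lower in P14 than in WT cells, and 4 of 7 pluripotency markers were higher. The epiblast markers summed to 1648 to 1751 against 4150.3 to 4439.9 and the pluripotency markers to 16244 to 18496 against 10794 to 11491, and their part in these differences was not tested.

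At day 4, 21 of the 33 members were lower in P14 than in WT libraries and 2 were higher, beside 8.75% and 7.43% of all genes. The members' median difference was -0.57, that of all genes 0. Of the 7 genes leading to farnesyl diphosphate 6 were lower, with Idi1 at -0.28 ± 0.12 the exception, and of the 11 from squalene to sterol 9 were lower, with Tm7sf2 (-0.19 ± 0.10) and Ebp (-0.53 ± 0.17) not passing the test. Hmgcs1 read 9696 and 10072 in WT and 5325 and 5319 in P14 libraries, 0.539 times the WT level (log2 -0.89 ± 0.12, adjusted p = 0.0001). Pmvk read 1293 and 1313 in WT and 599.6 and 687 in P14 libraries (log2 -1.02 ± 0.11, adjusted p = 1.2e-05), and Acat2 5747 and 5938 in WT and 3025 and 3110.1 in P14 libraries (log2 -0.93 ± 0.11, adjusted p = 2.7e-05). In each of the 21 genes both P14 libraries lay below both WT libraries, which is nearly given for genes called lower from these same libraries.

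Among the sterol genes, Msmo1 read 4287 and 4415 in WT and 2376 and 2360.1 in P14 libraries (log2 -0.88 ± 0.10, adjusted p = 1.5e-05), Lss 4294 and 4450.0 in WT and 2434 and 2532 in P14 libraries (log2 -0.82 ± 0.097, adjusted p = 2.3e-05), and Sc5d 1189 and 1072 in WT and 659.9 and 649 in P14 libraries (log2 -0.79 ± 0.11, adjusted p = 0.00011). The log2 differences of Cyp51, Fdft1, Dhcr7 and Sqle were -0.76, -0.63, -0.57 and -0.53, and that of Mvd was -0.88. Insig1 was lower (2814 and 2689 against 4101 and 4188; log2 -0.59 ± 0.087, adjusted p = 0.00017), and so was the carrier Stard4 (-0.64 ± 0.16). Srebf1, at 4703 and 5201 against 3772 and 3742, was called higher (log2 0.40 ± 0.12, adjusted p = 0.028). That call was lost without each WT or P14 library of day 4 and after scaling to totals (log2 0.32 to 0.47). Srebf2 (-0.23 ± 0.10), Scap (-0.27 ± 0.14) and Insig2 (0.081 ± 0.17) did not pass the test.

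The greatest fall was that of Scd2, which read 31355 and 32946 in WT and 12797 and 14048 in P14 libraries, 0.417 times the WT level (log2 -1.26 ± 0.11, adjusted p = 1.4e-06). Scd1 and Fads2 were lower, at log2 -0.56 ± 0.11 and -0.54 ± 0.13, and Fads1, at -0.31 ± 0.13, did not pass. Fasn read 29631 and 31375 in WT and 15267 and 18618 in P14 libraries (log2 -0.85 ± 0.13, adjusted p = 0.00017), while Acly, Acss2 and Acaca differed by -0.28 ± 0.10, -0.31 ± 0.12 and -0.31 ± 0.12 without passing. Elovl6 was higher in P14 cells, with 4417 and 4226 against 3144 and 3177 (log2 0.45 ± 0.099, adjusted p = 0.005). Of the 23 calls, 16 held without each of the 4 libraries; Mvk, Fdps, Nsdhl, Hsd17b7, Srebf1, Stard4 and Fads2 missed the threshold without at least 1 of them (log2 -0.69 to 0.47 there). At this stage 9 of 12 endoderm and 4 of 5 neuroectoderm markers were lower in P14 cells, beside 8.75% of all genes. Of the pluripotency markers 5 of 7 were higher, beside 7.43%. Of the 5 epiblast markers 2 were higher and 2 lower, and their sum was 1536 to 1789.5 against 3250.1 to 3332 in WT libraries. The part of these markers in the differences of the members was not tested.

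**Figure D4:**
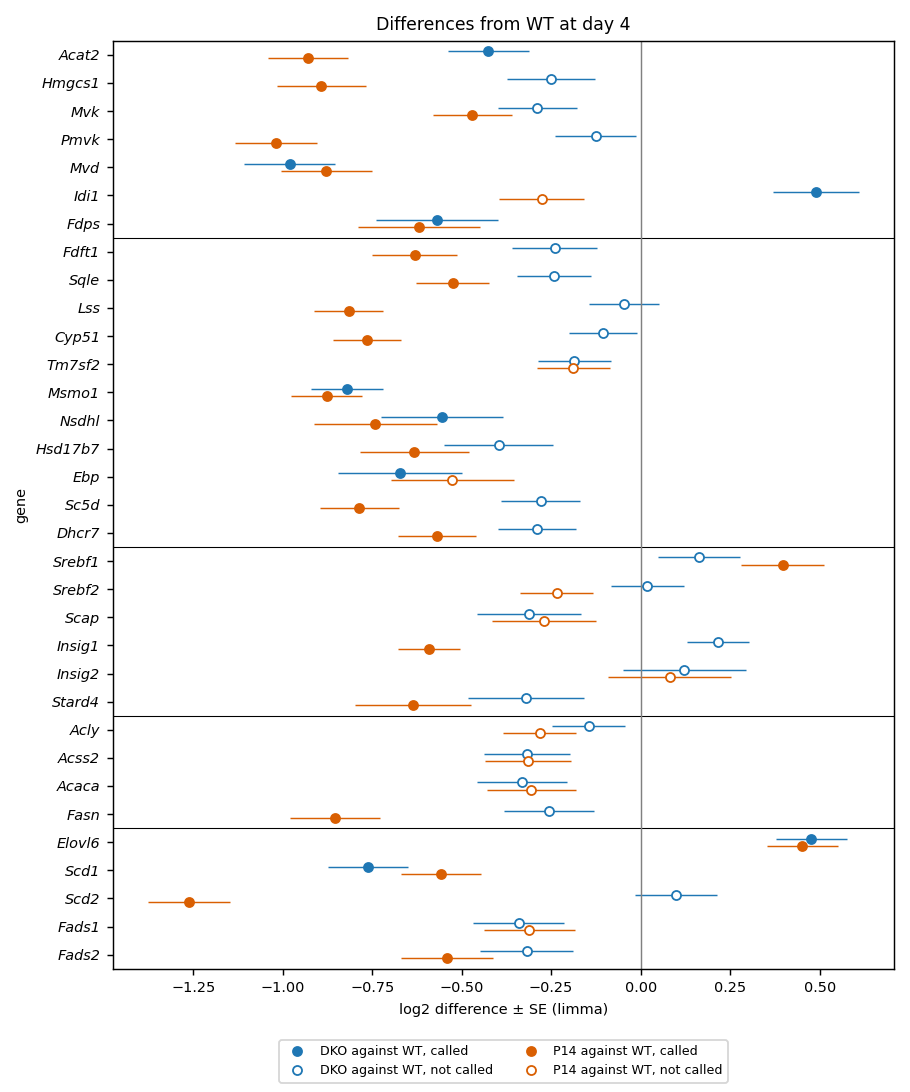
Log2 difference from WT at day 4 (horizontal axis, limma estimate ± SE) of each member in DKO-labelled and P14 libraries; filled points passed the threshold. P14 points of the mevalonate and sterol genes lie left of 0, Scd2 lies at -1.26 in P14 and at 0.099 in DKO-labelled libraries, and Elovl6 lies right of 0 in both.

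P14 and DKO-labelled cells were also compared directly. At day 2, 2 members were higher in P14 and 8 lower, beside 7.86% and 8.03% of all genes, with a median of -0.20. Mvd was 1.56-fold higher (log2 0.64 ± 0.13, adjusted p = 0.0026). Scd2, Acss2 and Sc5d were lower, at 0.617, 0.636 and 0.664 times the DKO-labelled level (-0.70, -0.65 and -0.59 on the log2 scale). Cyp51 and Elovl6 were lower too, at -0.49 ± 0.095 and -0.47 ± 0.099. Fdps (higher) and Hmgcs1, Idi1 and Hsd17b7 (lower) were called at log2 0.62, -0.57, -0.41 and -0.47. Each was lost without at least 1 of the 4 libraries (-0.55 to 0.44 there), and Idi1 and Hsd17b7 without each of them.

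At day 4, 11 members were lower in P14 than in DKO-labelled libraries and 0 higher, beside 7.17% and 6.2% of all genes. Their median was -0.22. At an unadjusted p under 0.05 the counts were 14 and 0, and limma-voom called 11 and 0, without shares of all genes. Scd2 read 12797 and 14048 against 35767 and 33106, 0.39 times the DKO-labelled level (log2 -1.36 ± 0.11, adjusted p = 1e-06). Pmvk, Insig1, Lss and Idi1 were lower, at log2 -0.89 ± 0.11, -0.81 ± 0.087, -0.77 ± 0.097 and -0.77 ± 0.12, and so were Cyp51 and Hmgcs1, at -0.66 ± 0.095 and -0.64 ± 0.12. Acat2, Fdft1, Sc5d and Fasn were called as well (-0.50, -0.39, -0.51 and -0.60), each lost without at least 1 of DKO day 4 replicate 2, P14 day 4 replicate 1 and P14 day 4 replicate 2 (-0.48 to -0.25 there). Mvd and Msmo1 differed between these cells by 0.10 ± 0.13 and -0.057 ± 0.10 without passing the test.

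Whether the difference from WT itself changed between stages was tested with interaction terms. From day 2 to day 4 the P14 difference moved down in 9 members and up in 1, beside 2.93% and 2.5% of all genes, with a median of -0.39. It moved by log2 -1.02 ± 0.16 for Acat2, -0.98 ± 0.16 for Pmvk and -0.78 ± 0.14 for Lss (adjusted p = 0.0012, 0.0018 and 0.003), and these 3 calls held without each library. Hmgcs1, Mvd, Fdps, Msmo1, Nsdhl and Sc5d moved down and Srebf1 up, with calls that were lost without at least 1 library (log2 -1.04 to 0.69 there). Hmgcs1 was lost in every such fit except that without P14 day 2 replicate 2. The counts ranged from 4 to 12 lower and from 0 to 1 higher without 1 library, and each of the 8 WT and P14 libraries of these stages except P14 day 2 replicate 2 took the total to 5 or fewer. Median centring gave 4 lower and 1 higher.

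From day 2 to day 4 the difference of DKO-labelled cells moved down in 6 members and up in 0. Beside this, 4.07% and 4.53% of all genes did so, and the members' median was -0.20. At an unadjusted p under 0.05, 13 moved down and 1 up, without shares of all genes. With limma-voom 7 and 1 were called, and median centring left 3 and 1. Ebp moved by log2 -1.24 ± 0.24 and Acss2 by -0.85 ± 0.17 (adjusted p = 0.0048 and 0.0056), and both genes rose in WT and fell in DKO-labelled cells. Hmgcs1, Msmo1, Sc5d and Scd1 were called too. Hmgcs1 and Scd1 were lost without each WT or DKO library of these stages and after median centring (log2 -0.64 to -0.47). Msmo1 was lost in the same fits, except without WT day 2 replicate 2, and with the compared groups alone (log2 -0.54 to -0.38). Sc5d was lost only without WT day 4 replicate 1 (log2 -0.64). Between 2i and day 2 only Acss2 was called, 0.80 ± 0.17 higher (adjusted p = 0.015), beside 2.42% higher and 1.31% lower of all genes. That call was lost without WT 2i replicate 2, DKO 2i replicate 1, WT day 2 replicate 2 or either DKO day 2 library. The log2 values there were 0.67 to 0.81. At an unadjusted p under 0.05, 3 members were higher and 4 lower, without shares of all genes. With limma-voom 2 and 2 were called, and 1 and 1 after median centring.

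**Figure D5:**
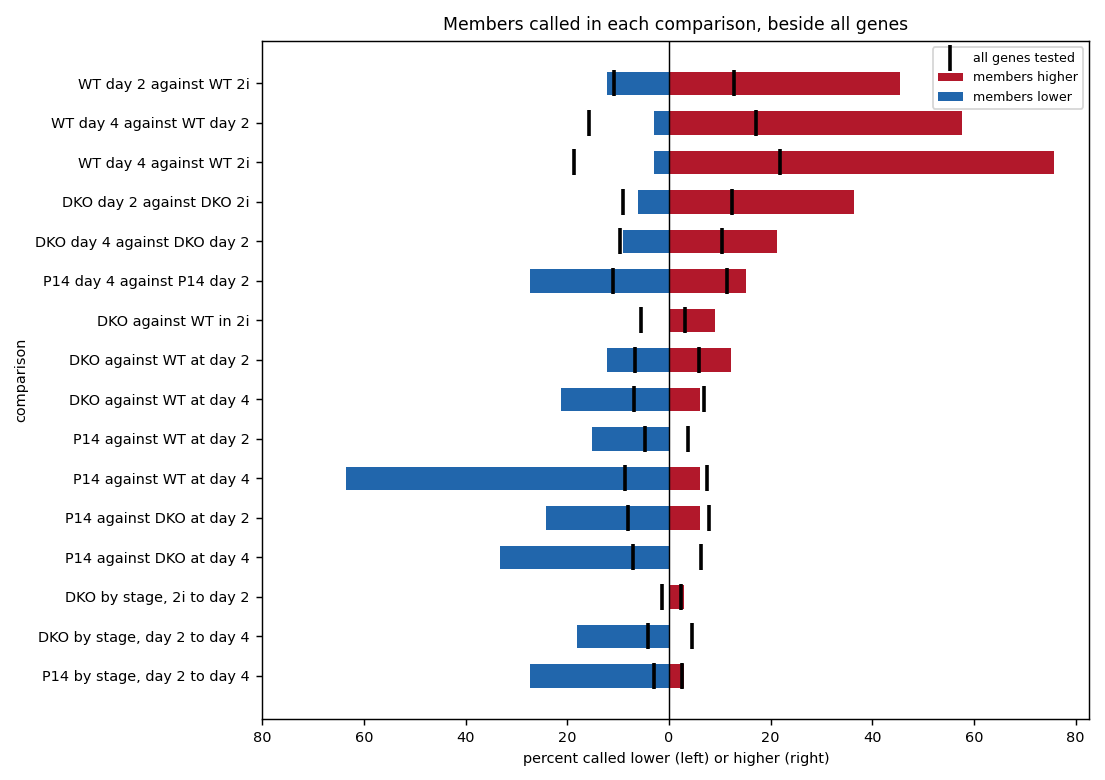
Percent of the 33 members called higher (right, red) or lower (left, blue) in each of 16 comparisons, with black ticks at the percent of all 21450 genes called in that direction. The red bars of the 3 WT comparisons and the blue bar of P14 against WT at day 4 reach farthest beyond their ticks.

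Genes that use or dispose of the same lipids were read from lists by role. Of 7 genes of sterol efflux and its control by LXR, 3 were lower and 0 higher at WT day 2 than in 2i (0 of the 7 estimates lay above 0), beside 10.8% and 12.7% of all genes. Among them was the cholesterol exporter Abca1 at 1519.7 and 1693 in 2i and 76.8 and 61.3 at day 2 (log2 -4.53 ± 0.18, adjusted p = 8.2e-11). Abca1 was 102 on average at WT day 4, 129.6 in DKO-labelled and 283 in P14 libraries, and 3 of the 7 were higher in P14 than in WT cells at day 4, beside 7.43% of all genes. Of 10 genes of endosomal and esterified cholesterol, 3 were higher and 2 lower at WT day 4 than in 2i, near the 21.9% and 18.7% of all genes. Soat1, which esterifies cholesterol for storage, went from 119 and 101 in 2i to 1347 and 1422 at day 4 (log2 3.65 ± 0.15, adjusted p = 3.4e-11) and stood at 586 and 654 in P14 libraries at day 4 (log2 -1.16 ± 0.15, adjusted p = 4.4e-05 against WT). Mbtps2, a protease that cuts SREBP, was higher in P14 than in WT cells at day 4 (log2 0.59 ± 0.14, adjusted p = 0.0092). Its list, of SREBP processing and INSIG turnover, summed to 10237 to 10703 in WT and 10981 to 11358 in P14 libraries at day 4. The list of endosomal and esterified cholesterol summed to 8376 to 8390 in WT and 7203 to 7976 in P14 libraries at day 4.

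Genes of fatty acid breakdown were read the same way. Of 13 measured genes of fatty acid oxidation, 6 were lower and 3 higher at WT day 4 than in 2i, beside 18.7% and 21.9% of all genes, so that the share called higher was near that of all genes. Cpt1a, which admits fatty acids to mitochondria, read 1966 and 2346 in WT 2i, 218 and 222 at day 2 and 27 and 49.7 at day 4, a fall to 0.0175 times its level (log2 -5.83 ± 0.20, adjusted p = 4.9e-12), and the carrier Slc25a20 changed by log2 -2.02 ± 0.16. Cpt1c, its relative known from neurons, rose by 1.96 ± 0.19. At day 4 Cpt1a was higher than in WT in both DKO-labelled and P14 libraries, by 2.19 ± 0.20 and 2.13 ± 0.20, and Acadm, which starts the oxidation of medium chains, by 0.57 ± 0.16 and 0.71 ± 0.16. At day 4 all 13 summed to 5765 to 5806 in WT, 6011 to 6503 in DKO-labelled and 6491 to 6548 in P14 libraries. Of 16 other genes of fatty acid synthesis and activation, 7 were higher and 4 lower at WT day 4 than in 2i, beside the same shares of all genes. At day 4, 6 of the 16 were lower and 2 higher in P14 than in WT cells, beside 8.75% and 7.43% of all genes. The desaturase relative Fads3 rose from 14.9 to 302 on average (log2 4.28 ± 0.32, adjusted p = 3.5e-08), and Acsl4 and Acsl5, which activate long chains, were lower in P14 than in WT cells at day 4, at log2 -1.33 ± 0.17 and -1.59 ± 0.20.

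Strand matters for some of these values. The library kit keeps the strand, but the setting used in counting is not given in the sources used here, so reads of a gene and of an overlapping antisense gene may not have been kept apart. Among the members this touches Hmgcs1 (Gm48342), Idi1 (Gm48574), Fdft1 (Ctsb), Lss (4930483K19Rik), Cyp51 (Akap9), Srebf1 (Rai1), Scap (5830462I19Rik), Acss2 and Elovl6 (Gm35986). Fdps, Tm7sf2 and Scd2 share exonic bases with another gene on the same strand (Gm43738, Vps51 and Mir5114).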

How the data were processed

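Per the labels' protocols, total RNA was taken with a PureLink kit and libraries were made with a stranded Collibri kit. The submitters' processing notes name Trim Galore, HISAT2, featureCounts and the mm10 (GRCm38) build. Versions, annotation, strand setting and scaling are not stated there. The deposited values are log2 of a normalized read count with an offset of 4. Removing the offset gave whole multiples of 1 step per library (0.792 to 1.26 normalized counts per read) for 100% of the values under 1000 reads, with a tolerance of 0.1 read, so that reads could be recovered, 20696344 to 32710603 per library. Each group has n = 2, and errors are SE from the fit.

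Of 22122 entries, 667 had no symbol, held 7.61% to 11.1% of the reads and were not tested, and 3 symbols stood on several entries. limma 3.58.1 in R 4.3.3 was fitted to log2(normalized count + 1) for the 21450 genes that reached 1 in 2 or more libraries, with 8 group means, a trended prior and Benjamini-Hochberg adjustment within each of 16 comparisons; a gene was called at an adjusted p-value under 0.05. The whole-genome fit was first run on simulated data for a single comparison, WT day 4 against day 2, with the same dispersion for every gene. That run does not test the other comparisons, the interactions or gene-specific spread. A count-based test, limma-voom with TMM scaling on the recovered reads, was an alternative; it called 4530 genes higher and 4266 lower at WT day 4 than in 2i, and 1703 and 2085 in P14 against WT cells at day 4. Other alternatives were pseudocounts of 0.1 and 4, a filter of 10, no filter, median centring, scaling to totals, a replicate block, fits of the compared groups alone, and leaving out each library, where the lone library of a group is assumed to vary like the other groups. The log2(count + 1) scale understates changes of low genes. Marker and pathway lists and the 33 members were chosen with earlier results of these data known. Every member is named; of the other lists, counts and up to 4 called genes with the smallest adjusted p per comparison; the list of SREBP processing is reported here only in part. Promoter windows and gene positions were read from RefSeq and GENCODE annotation of GRCm38 with Python 3.11.15 and pandas 2.3.3.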

Additional observations from a re-analysis of the deposited data

Results flagged for a closer look

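The following members were called as changing from one stage to the next by a different amount in the compared cells than in WT cells (interaction term in limma, adjusted over all genes). Between day 2 and day 4, the calls of Acat2, Pmvk and Lss in P14 cells held without each library. Those of Ebp and Acss2 in DKO-labelled libraries between these days also held. Every other call listed here was lost without at least 1 library. Each value is the log2 change in those cells minus that in WT cells.

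For P14 cells between day 2 and day 4, the genes leading to farnesyl diphosphate gave -1.02 ± 0.16 for Acat2 (adjusted p = 0.0012), -0.98 ± 0.16 for Pmvk (adjusted p = 0.0018), -0.92 ± 0.24 for Fdps (adjusted p = 0.038), -0.72 ± 0.18 for Mvd (adjusted p = 0.028) and -0.67 ± 0.18 for Hmgcs1 (adjusted p = 0.038). The sterol genes gave -1.09 ± 0.24 for Nsdhl (adjusted p = 0.014), -0.78 ± 0.14 for Lss (adjusted p = 0.003), -0.63 ± 0.16 for Sc5d (adjusted p = 0.028) and -0.55 ± 0.14 for Msmo1 (adjusted p = 0.034). Srebf1 gave 0.69 ± 0.16 (adjusted p = 0.022), rising in P14 cells and not passing the test in WT cells.

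For DKO-labelled libraries between day 2 and day 4, the values were -1.24 ± 0.24 for Ebp (adjusted p = 0.0048), -0.85 ± 0.17 for Acss2 (adjusted p = 0.0056), -0.71 ± 0.16 for Sc5d (adjusted p = 0.0096), -0.59 ± 0.18 for Hmgcs1 (adjusted p = 0.049), -0.57 ± 0.16 for Scd1 (adjusted p = 0.038) and -0.48 ± 0.14 for Msmo1 (adjusted p = 0.048). Between 2i and day 2, Acss2 gave 0.80 ± 0.17 (adjusted p = 0.015). Both sets of values use the same WT libraries at day 2 and day 4.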

How the results depend on the processing

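No value changed sign among those called. The counts of called members in WT day 2 against 2i, WT day 4 against 2i, DKO day 2 against 2i, DKO day 4 against day 2, DKO-labelled against WT at day 2 and day 4, P14 against WT at day 4, P14 against DKO-labelled cells at day 4 and the DKO interaction from day 2 to day 4 stayed within 1.5 times under every alternative that kept all libraries. The exceptions were these. Median centring gave 12 called members for WT day 4 against day 2, 0 for DKO-labelled against WT in 2i, 2 for the DKO interaction from 2i to day 2 and 5 for the P14 interaction. Scaling to totals gave 8 for P14 day 4 against day 2, 1 for DKO-labelled against WT in 2i and 6 for the P14 interaction. Fitting the compared groups alone gave 6, 0 and 4 in those 3 comparisons, 1 for P14 against WT at day 2 and 4 for P14 against DKO-labelled cells at day 2. The DKO interaction from 2i to day 2 gave 2 with a pseudocount of 0.1, 2 with the filter of 10 and 4 with limma-voom. The cause of these shifts was not tested. Whether the replicate numbers pair libraries of different groups is not known. The r of replicate differences between groups was -0.083 to 0.14, which cannot decide it, because these differences hold the noise of single libraries. The replicate block gave 8 called members for P14 against WT at day 2. Without 1 library each, the counts ranged as follows: 12 to 16 for WT day 2 against WT 2i, 14 to 17 for WT day 4 against WT day 2, 24 to 25 for WT day 4 against WT 2i, 9 to 13 for DKO day 2 against DKO 2i, 6 to 7 for DKO day 4 against DKO day 2, 8 to 13 for P14 day 4 against P14 day 2, 0 to 3 for DKO-labelled against WT in 2i, 3 to 4 for DKO-labelled against WT at day 2, 5 to 6 for DKO-labelled against WT at day 4, 1 to 9 for P14 against WT at day 2, 18 to 20 for P14 against WT at day 4, 7 to 14 for P14 against DKO at day 2, 8 to 11 for P14 against DKO at day 4, 0 to 1 for DKO interaction, 2i to day 2, 2 to 4 for DKO interaction, day 2 to day 4 and 4 to 13 for P14 interaction, day 2 to day 4. Scaling to totals shifted the all-gene median to 0.13 (WT day 4 against day 2), 0.17 (WT day 4 against 2i), 0.15 (DKO day 2 against 2i), -0.14 (P14 against DKO-labelled at day 2) and -0.17 (DKO interaction, day 2 to day 4), and median centring to -0.086 (P14 day 4 against day 2). The DKO interaction from day 2 to day 4 split 1 higher and 3 lower under median centring. Over single genes and comparisons, leaving out a library left 2236 values on the same side of the threshold, took 247 below it and 25 past it. No member had fewer than 128 reads in a library, and the effect of depth was not tested.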

Other observations

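Neighbouring lipid pathways gave further values. Of 9 genes of the non-sterol isoprenoid branch, which makes ubiquinone, dolichol and protein lipid anchors from farnesyl diphosphate, 1 was higher and 2 were lower at WT day 4 than in 2i, where 21.9% and 18.7% of all genes were, so that neither share stands out. Coq2, which attaches the side chain of ubiquinone, read 197 and 157 in 2i and 339.9 and 391 at day 4 (log2 1.05 ± 0.18, adjusted p = 0.00025, limma). Fnta, a subunit of the protein farnesyl transferase, was lower than WT at day 4 in DKO-labelled (log2 -0.68 ± 0.16, adjusted p = 0.0088) and in P14 libraries (log2 -0.51 ± 0.16, adjusted p = 0.039), which share the WT libraries. Summed at day 4, the 9 genes reached 4180 to 4303 in WT, 4007 to 4024 in DKO-labelled and 4001 to 4109 in P14 libraries. Of 7 genes of glycerolipid synthesis, 2 were higher at WT day 4 than in 2i, also near the share of all genes. Lpin1, which makes diacylglycerol from phosphatidate, read 668 and 696 at WT day 4 and 291 and 281 in P14 libraries at day 4 (log2 -1.25 ± 0.11, adjusted p = 1e-06). Summed over the 7 glycerolipid genes, the level at day 4 was 3747 to 3842 in WT and 3453 to 3474 in P14 libraries.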
